A study of Mus musculus with 18 samples.

Results

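The 35 genes described here encode proteins that take cells from G2 into mitosis and through chromosome segregation and cytokinesis. They were chosen by gene symbol for these known roles, and all 35 were found among the 34850 genes with a value in 18 mouse libraries. All 35 also met the condition for testing, a level of at least 10 RPM (reads per 1e6 reads of the library) in at least 2 libraries. Cdc25b reached that level in 6 libraries, Kif20a in 9, Cdc25c in 17 and the other members in all 18.

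Entry into mitosis is driven by the kinase encoded by Cdk1, which is bound by cyclins A and B and freed from inhibitory phosphates by CDC25 phosphatases. Aurora and Polo kinases then shape the spindle, and the spindle checkpoint holds back Cdc20, the activator of the anaphase-promoting complex, until kinetochores are attached to microtubules. Once active, that complex marks cyclin B and securin for destruction, the sister chromatids part, and the central spindle directs cytokinesis. Most of these genes are transcribed in late S phase, G2 and mitosis, under complexes that contain MuvB proteins with B-MYB and FOXM1, so their transcripts are widely used as a measure of cycling. Mouse primordial germ cells divide while they migrate to the gonads and accumulate in G2 for a time around the start of migration. In bulk samples, fewer cells in G2 or mitosis and less RNA per such cell cannot be told apart.

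The study concerns the growth in culture of primordial germ cell-like cells (PGCLCs), germline precursors induced in the dish from epiblast-like cells (EpiLCs), which are themselves made from embryonic stem cells (ESCs), with cyclosporin A (CsA), which inhibits the phosphatase calcineurin, and with FGF signalling. SC3-seq, which reads the 3′ ends of transcripts from amplified cDNA, was applied to 9 groups of 2 libraries. ESCs, EpiLCs at day 2 and PGCLCs at day 4 of induction (d4 PGCLC) were of the strain C57BL/6 and carried Blimp1-mVenus and Stella-ECFP reporters. The ESCs and EpiLCs were unsorted, and the d4 PGCLCs were sorted for mVenus. The d4c7 groups, labelled CsA, FGF10, FGF2 and FR10, were mVenus-sorted PGCLCs of B6D2F1 background with the same reporters, cultured for 7 days on m220-5 feeder cells. The E9.5c5 groups, labelled CsA and FR10, were primordial germ cells of E9.5 embryos from B6D2F1 x C57BL/6 with a Stella-EGFP reporter, cultured for 5 days on the same feeder type and sorted for EGFP. FR10 stands for forskolin and rolipram, each at 10 µM, which raise cAMP. The protocol shared by all samples lists forskolin at 10 µM, with rolipram, in the medium of the cultured germ cells and sets no condition apart, so FR10 is used below as the name of the groups with that label. The sources used here do not give the doses of CsA and FGF and do not say if FGF10 names a factor or an amount. The protocols call the replicates of the cultured groups biological, whereas for ESCs, EpiLCs and d4 PGCLCs the spread between replicates may be technical.

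The depth inferred for the libraries ran from 2129323 to 7547917 reads, at which 3 reads amount to 0.397 to 1.41 RPM. The 2 replicates of a group differed, in the median over 9561 tested genes and in absolute log2 value, by 0.601 in E9.5c5 CsA, 0.468 in d4c7 FGF2 and 0.426 in E9.5c5 FR10, and between 0.193 and 0.290 in the other 6 groups. Replicate 2 of these 3 groups stood apart in earlier results of these data, and values without these 3 libraries are given where they change a result. The summed level of 8 germ cell markers was 2042 to 2121 RPM in d4 PGCLCs, 1339 to 1479 RPM in d4c7 FGF2 and 2361 to 2419 RPM in d4c7 FR10, against 282 to 315 RPM in EpiLCs. From d4 PGCLCs to d4c7 FR10 the log2 difference was positive for 2 of these markers, with Dppa3 at 1.10, and negative for 6. Their median was -0.60. Of 13 fibroblast and feeder markers, Lum was listed at 0 in all 18 libraries and Thy1 in the 12 cultured ones. Dcn was at 5.47 to 88.2 RPM and Sparc at 50.1 to 125 RPM in the cultured libraries, against 0 and 0 RPM for Dcn and 342 and 316 RPM for Sparc in d4 PGCLCs.

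Promoter windows of RefSeq genes (GRCm38.p6), each of 300 bases from 250 before to 50 after a transcription start, were available for 29 of the 35 members, in 32 windows. They were searched on both strands for the cell cycle homology region (CHR), written TTTGAA or TTCGAA, at which MuvB complexes bind, and for the CCAAT box, which the factor NF-Y binds. A CHR was present in 26 of the 32 member windows, or 81.2%, against 19.2% of all 32851 windows. A CCAAT box was present in 78.1% of the member windows, against 37.4% of all. Both were present in 71.9% of the member windows, against 7.52% of all. A match is a description of the letters and not evidence of binding. The 120 bases before the start are shown for the genes on which the results below turn most, with matches to either motif, on either strand, in capitals (ATTGG is CCAAT and TTCAAA is TTTGAA on the other strand).
Cenpf, chr1:189688087-189688206, minus strand: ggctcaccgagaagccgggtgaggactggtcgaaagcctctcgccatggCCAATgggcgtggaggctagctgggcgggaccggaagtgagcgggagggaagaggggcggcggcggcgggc
Ccnb2, chr9:70421555-70421674, minus strand: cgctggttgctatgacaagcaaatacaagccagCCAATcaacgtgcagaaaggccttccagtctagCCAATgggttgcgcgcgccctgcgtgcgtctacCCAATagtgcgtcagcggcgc
Cdc20, chr4:118437344-118437463, minus strand: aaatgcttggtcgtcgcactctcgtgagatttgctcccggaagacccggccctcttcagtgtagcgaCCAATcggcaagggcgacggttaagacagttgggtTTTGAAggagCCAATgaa
Bub1, chr2:127831860-127831979, minus strand: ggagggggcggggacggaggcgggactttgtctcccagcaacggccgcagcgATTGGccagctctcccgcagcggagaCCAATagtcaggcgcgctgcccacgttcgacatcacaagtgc
Kif11, chr19:37376262-37376381, plus strand: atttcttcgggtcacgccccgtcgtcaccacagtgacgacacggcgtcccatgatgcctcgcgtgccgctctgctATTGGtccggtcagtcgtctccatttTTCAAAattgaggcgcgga
Top2a, chr11:99024190-99024309, minus strand: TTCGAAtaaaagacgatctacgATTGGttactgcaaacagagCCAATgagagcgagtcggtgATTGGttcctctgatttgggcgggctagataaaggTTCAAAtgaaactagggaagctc

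Cdc20 and Kif11 each held a CHR in these bases, 18 and 19 bases before the start. In Cenpf and Bub1 the CHR lay just after the start, outside the bases shown, at 3 and 15 bases. Top2a held both forms of the CHR and 3 CCAAT boxes in the bases shown. Ccnb2 held 3 CCAAT boxes there, and its CHR matches lay outside them, 167 bases before and 5 bases after the start. The windows of Birc5, Mad2l1, Nuf2 and Nusap1 held neither motif, which says only that these letters are not in those windows.

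**Figure D1:**
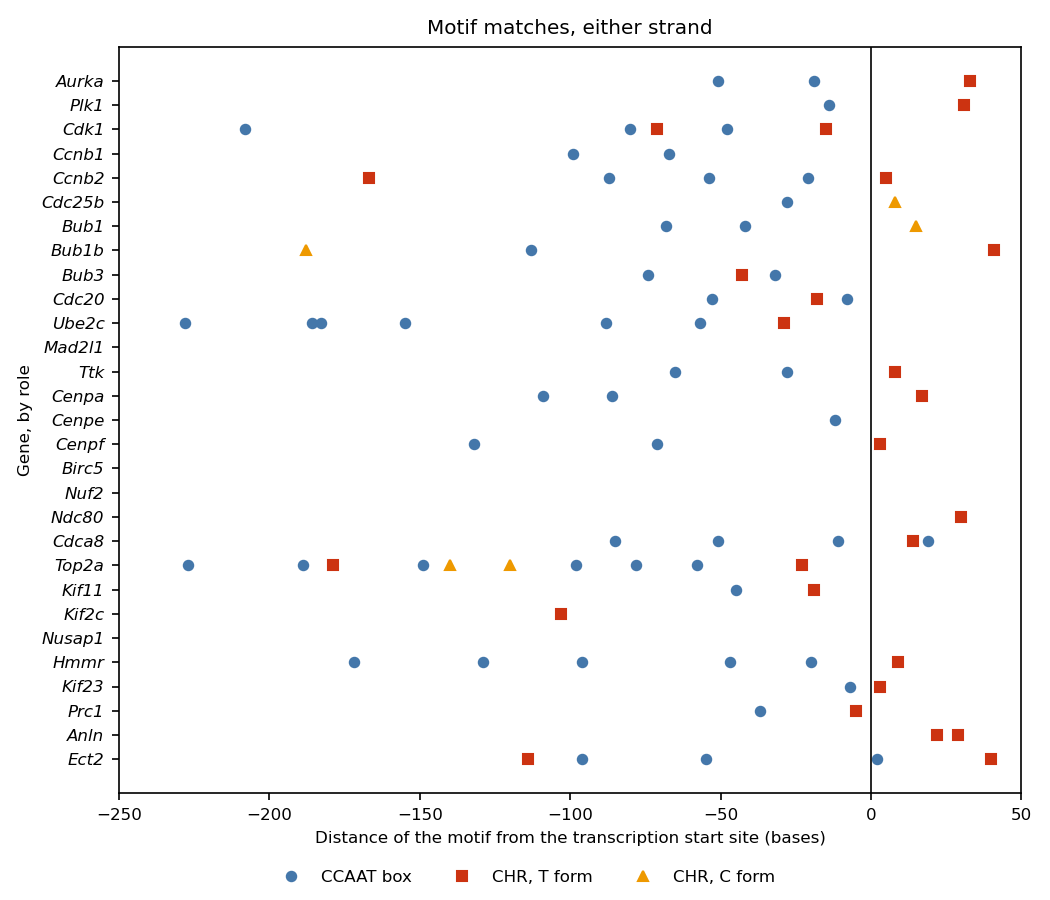
Each row is a member with a RefSeq promoter window (the first window where a gene has more than 1) and each symbol is a match to the CCAAT box (circles), TTTGAA (squares, CHR T form) or TTCGAA (triangles, CHR C form) on either strand. The x axis gives the distance from the transcription start site in bases, from 250 before to 50 after it. Most CCAAT boxes lie before the start, as do most positions of the window. Many CHR matches lie close to the start or just after it.

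Every member was listed above 0 RPM in every library. The ratio of the highest to the lowest group mean ran from 1.47 for Ccnb1, which encodes cyclin B1, to 5.99 for Kif11, the kinesin that pushes spindle poles apart. On the deposited RPM the highest group mean was in d4 PGCLCs for 19 members and in d4c7 FR10 for 7. The lowest was in d4c7 FGF2 for 13 members and in EpiLCs for 10. Summed over the 35 genes, the level was 4422 ± 66.6 RPM in ESCs, 4454 ± 202 RPM in EpiLCs, 6759 ± 170 RPM in d4 PGCLCs and 6445 ± 455 RPM in d4c7 FR10 (SD, n = 2 each). The sum was 4894 ± 171 RPM in d4c7 CsA, 5897 ± 195 RPM in d4c7 FGF10 and 4368 ± 692 RPM in d4c7 FGF2 (SD, n = 2 each). In the cultured embryo cells it was 4810 ± 1073 RPM in E9.5c5 CsA and 5588 ± 122 RPM in E9.5c5 FR10 (SD, n = 2 each). These gaps were narrower on values scaled between libraries as described below. There the sums were 4796 and 4611 in EpiLCs, 5682 and 5358 in d4 PGCLCs, and 5822 and 5287 in d4c7 FR10. They were 4905 and 4405 in d4c7 FGF2, and 5418 and 5551 in E9.5c5 FR10.

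**Figure D2:**
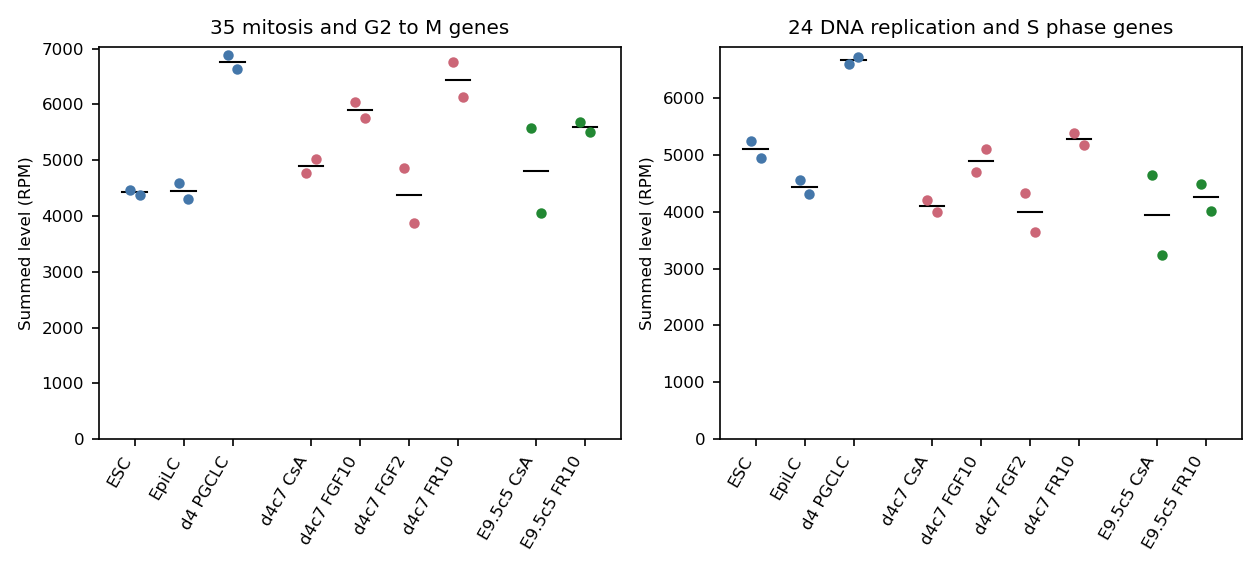
Points are libraries and bars group means of the level (RPM, from 0) summed over the 35 mitosis and G2 to M genes (left) and over 24 DNA replication and S phase genes (right), by group, with uncultured cells in blue, cultured PGCLCs in red and cultured embryo germ cells in green. On the left the d4 PGCLC libraries lie at 6878 and 6639 RPM and the EpiLC libraries at 4597 and 4311 RPM. On values scaled between libraries, which are not drawn, these were 5682 and 5358, and 4796 and 4611.

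**Figure D3:**
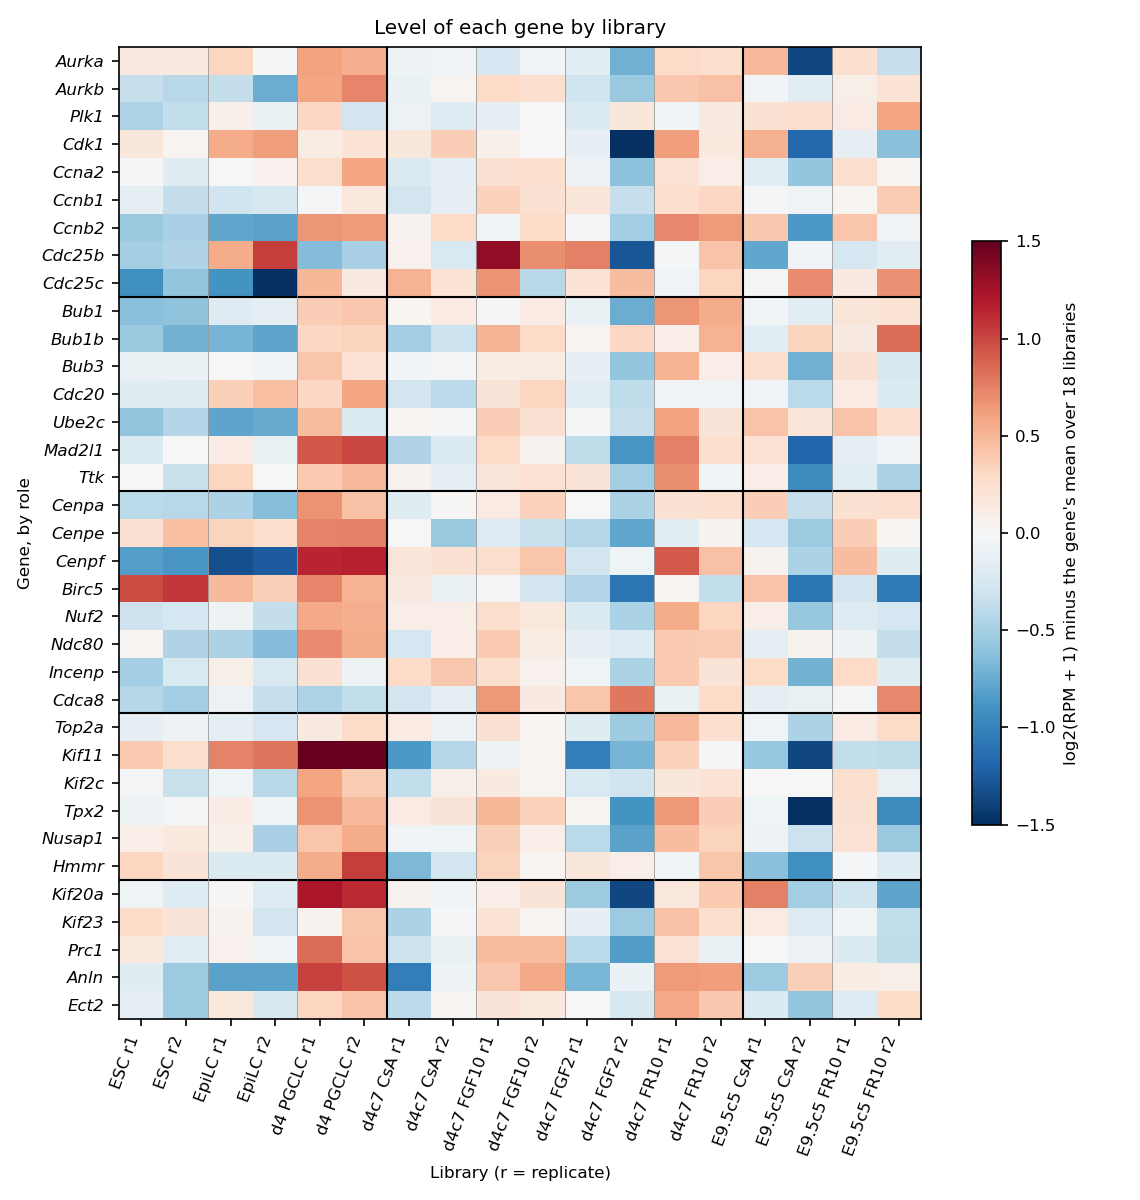
Rows are the 35 genes in 5 role groups, from the mitotic kinases at the top to cytokinesis at the bottom, and columns are the 18 libraries. Colour gives log2(RPM + 1) minus the gene's mean over the libraries, with red above and blue below it, and the scale ends at 1.5 either way. In d4c7 FGF2 and in E9.5c5 CsA replicate 1 is above replicate 2 for 28 and 27 of the 35 genes.

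EpiLCs were compared with ESCs, which are in the naive state of pluripotency that EpiLCs have left, and a single member, Cdc20, passed the test. Of the 35 members, 1 rose and 0 fell at a Benjamini-Hochberg adjusted p under 0.05 in limma, where 7.09% of all tested genes rose and 8.86% fell. Cdc20 was at 193 and 206 RPM in EpiLCs, against 132 and 132 RPM in ESCs. Both EpiLC libraries were above both ESC libraries. The log2 difference of Cdc20, taken like all differences below on log2(RPM + 1), a scale that understates changes of low genes, was 0.59 ± 0.19 (SE) with an adjusted p of 0.0423. This call was lost without any 1 of the 4 libraries. Without the 3 libraries that stood apart 4 members rose and 1 fell, as 29.7% of all tested genes were called.

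The next smallest p-values belonged to Cdc25b and Bub1. Cdc25b, a phosphatase that activates Cdk1, was at 12.2 and 17.4 RPM in EpiLCs, against 5.3 and 5.55 RPM in ESCs, with a log2 difference of 1.28 ± 0.54 and an adjusted p of 0.128. Bub1, a checkpoint kinase at kinetochores, was at 125 and 130 RPM in EpiLCs, against 92.5 and 94 RPM in ESCs, with a log2 difference of 0.45 ± 0.20 and an adjusted p of 0.14. Among the genes followed in every comparison, log2 differences were 0.49 ± 0.44 for Cdk1, -0.01 ± 0.18 for Ccnb1, 0.41 ± 0.23 for Plk1, -0.10 ± 0.18 for Top2a and -0.60 ± 0.37 for Birc5, none of them called. Over the 35 members the median log2 difference was 0.01, beside 0.009 for all tested genes. Around the members, 1 of 20 other G2 to M regulators fell, 1 of 15 genes of the anaphase-promoting complex, 4 of 14 cohesin and separase genes, 3 of 26 further kinetochore genes, 0 of 8 condensin genes and 0 of 19 further spindle and cytokinesis genes, with 0 higher in each and medians between -0.08 and 0.03. Mybl2, which encodes B-MYB, fell by 1.49 ± 0.23 (adjusted p 0.000187), Fzr1, the activator of the anaphase-promoting complex at mitotic exit, fell by 0.86 ± 0.20 (adjusted p 0.00624), and Pttg1, which encodes securin, fell by 0.89 ± 0.21 (adjusted p 0.00663). Of 23 tested S phase genes, 4 fell and 0 rose.

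The step from EpiLCs to d4 PGCLCs is the induction of germ cell fate. Some members of each role group rose on the deposited values, as did 27.5% of all tested genes. Cenpf, Anln, Ccnb2 and Aurkb also rose on values scaled between libraries as described below, where no checkpoint or motor gene did. In d4 PGCLCs 17 of the 35 members rose and 0 fell, against 27.5% of all tested genes that rose and 12.1% that fell. The median log2 difference was 0.56 over the members and 0.34 over all tested genes. The summed level was 1.52 times higher in d4 PGCLCs. Both d4 PGCLC libraries lay above both EpiLC libraries for 29 members, against 52.3% of all tested genes. They lay below for 3 members (Cdk1, Cdc25b and Cdca8, named after their values were seen), against 27.1% of all.

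RPM is a share of each library, and the shift of all genes in this comparison depends on that scale. When the libraries were scaled by their median ratio over the tested genes, the median difference of all tested genes was -0.004, that of the members 0.19, and the summed level 1.17 times higher in d4 PGCLCs. On that scale 7 members rose (Cenpf, Cenpa, Anln, Ccnb2, Aurkb, Ndc80 and Cdc25c) and Cdc25b fell, while 1645 of all tested genes rose and 1801 fell. As deposited, 2629 rose and 1155 fell. The number of members with a positive difference was 24 on the scaled values and 32 as deposited, and on the scaled values 19 members lay wholly above and 4 wholly below, against 38.4% and 38.9% of all.

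Among the mitotic kinases and cyclins, 3 of 9 rose, a share near the 27.5% of all tested genes. Aurkb, the kinase of the chromosomal passenger complex that corrects faulty attachments, was at 150 and 166 RPM in d4 PGCLCs, against 77.3 and 58.8 RPM in EpiLCs. Its log2 difference was 1.22 ± 0.19 (adjusted p 0.00011). Ccnb2, which encodes cyclin B2, was at 390 and 384 RPM in d4 PGCLCs, against 143 and 140 RPM in EpiLCs. It rose by 1.45 ± 0.29 (adjusted p 0.001), and its replicates differed by little beside the gap between groups. Ccnb1 was at 531 and 605 RPM in d4 PGCLCs, against 442 and 462 RPM in EpiLCs, a log2 difference of 0.33 ± 0.18 (adjusted p 0.169). Cdk1 was at 188 and 201 RPM in d4 PGCLCs, against 255 and 269 RPM in EpiLCs, and Plk1, the Polo kinase, was at 129 and 85.2 RPM in d4 PGCLCs, against 109 and 96.7 RPM in EpiLCs. Their log2 differences, -0.43 ± 0.44 and 0.03 ± 0.23, did not pass the test. Cdc25c, a further activating phosphatase, was at 36.2 and 27.8 RPM in d4 PGCLCs, against 13.1 and 7.35 RPM in EpiLCs.

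Of the 7 checkpoint and anaphase-promoting complex genes, 4 rose (Bub1, Bub1b, Mad2l1 and Ube2c), where 27.5% of all tested genes rose. On scaled values none of these genes was called. Bub1b, which encodes the checkpoint inhibitor BUBR1, was at 161 and 164 RPM in d4 PGCLCs, against 79.8 and 74.7 RPM in EpiLCs. Mad2l1, which encodes the checkpoint protein MAD2, was at 235 and 247 RPM in d4 PGCLCs, against 134 and 113 RPM in EpiLCs. Cdc20, the target of that inhibition, was at 187 and 227 RPM in d4 PGCLCs, against 193 and 206 RPM in EpiLCs, and the groups overlapped (log2 difference 0.05 ± 0.19, adjusted p 0.866).

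Of the 8 centromere, kinetochore and passenger genes, 4 rose, where 27.5% of all tested genes rose. On scaled values Cenpf, Cenpa and Ndc80 were called higher. Cenpf (chromosome 1, 189640606 to 189688107, GRCm38), a large kinetochore protein that accumulates in G2, was at 185 and 186 RPM in d4 PGCLCs, against 32.8 and 34.4 RPM in EpiLCs. With a log2 difference of 2.43 ± 0.25 (adjusted p 1.23e-06) it had the largest difference of the members in this comparison. Cenpa, the histone variant that marks the centromere, was at 604 and 512 RPM in d4 PGCLCs, against 271 and 243 RPM in EpiLCs (1.11 ± 0.21, adjusted p 0.000615). Ndc80, which binds microtubules at the kinetochore, was at 102 and 91.9 RPM in d4 PGCLCs, against 44.4 and 39.1 RPM in EpiLCs (1.20 ± 0.23, adjusted p 0.000678). For these 3 genes the replicates lay close together and the groups far apart. Birc5, which encodes the passenger protein survivin, differed by 0.21 ± 0.37 (adjusted p 0.686).

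Of the 6 motor and spindle assembly genes 4 rose (Kif11, Kif2c, Nusap1 and Hmmr), where 27.5% of all tested genes rose. Of the 5 central spindle and cytokinesis genes 2 rose (Anln and Kif20a). Anln (chromosome 9, 22331214 to 22389211, GRCm38), which encodes anillin of the contractile ring, was at 154 and 147 RPM in d4 PGCLCs, against 42.7 and 42.9 RPM in EpiLCs. Its log2 difference was 1.79 ± 0.31 (adjusted p 0.000288). Kif11 was at 161 and 149 RPM in d4 PGCLCs, against 83.8 and 87.4 RPM in EpiLCs. Top2a, the topoisomerase that untangles sister chromatids, was at 502 and 557 RPM in d4 PGCLCs, against 413 and 383 RPM in EpiLCs, and its difference of 0.41 ± 0.18 did not pass the test (adjusted p 0.0841).

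On the deposited values, other genes of the same pathway moved in the same comparison. Their lists were not counted on scaled values, where fewer of all tested genes rose. Of 19 further spindle and cytokinesis genes 13 rose and 0 fell, among them Cep55, which acts at abscission (3.02 ± 0.48, adjusted p 0.00011), and Ckap2, a spindle-associated protein (2.25 ± 0.29, adjusted p 1.83e-05). Of 15 genes of the anaphase-promoting complex 10 rose, of 14 cohesin and separase genes 8 rose, of 8 condensin genes 3 rose and of 26 further kinetochore genes 7 rose, with 0 lower in each of these lists, where 27.5% of all tested genes rose. For the further kinetochore genes this share was about that of all genes. Sgol2a, which protects centromeric cohesin, rose by 2.82 ± 0.30 (adjusted p 2.44e-06). Of 20 other G2 to M regulators 7 rose and 1 fell, with the centrosomal kinase gene Nek2 at 2.19 ± 0.33 (adjusted p 6.59e-05). Among 23 S phase genes, whose median was 0.42, 9 rose and 2 fell, and Cdc45 of the replicative helicase rose by 2.00 ± 0.20 (adjusted p 9.77e-07). The d4 PGCLCs were mVenus-sorted and the EpiLCs were not, so the sort and the change of cell state cannot be told apart. Fewer than 17 members were called when any 1 EpiLC or d4 PGCLC library was left out. The members' median then ran from 0.47 (without EpiLC replicate 2) to 0.64 (without EpiLC replicate 1), beside 0.347 and 0.385 for all tested genes. Without the 3 libraries that stood apart 26 members were called (24 higher, 2 lower), as 55.8% of all tested genes were.

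**Figure D4:**
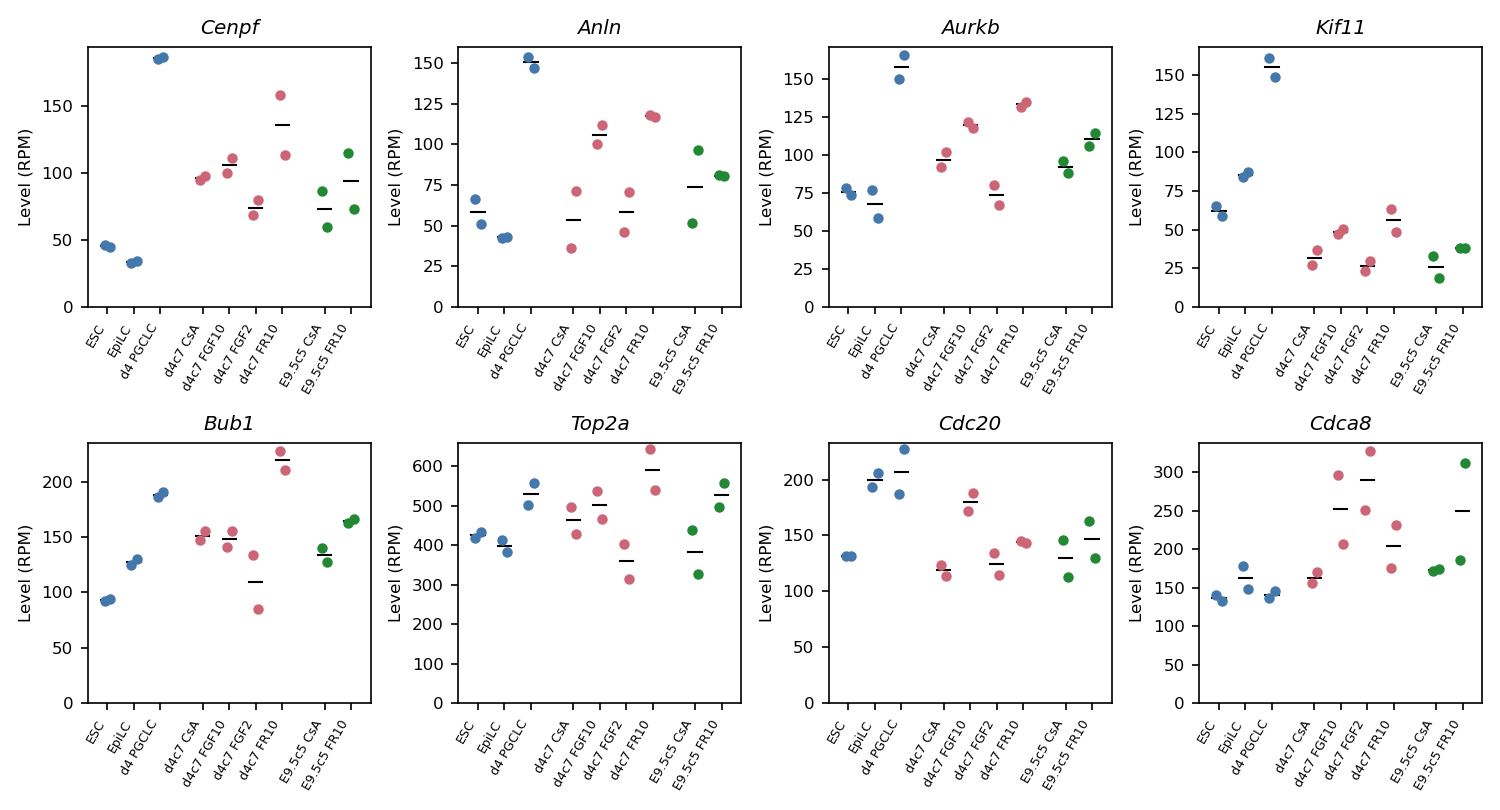
Each panel gives the level in RPM, on an axis from 0, of 1 gene in every library (points) with the group mean (bar), and colours are blue for uncultured cells, red for cultured PGCLCs and green for cultured embryo germ cells. Cenpf, Anln, Aurkb and Kif11 are above both EpiLC libraries in both d4 PGCLC libraries, while Cdc20 overlaps between these groups and Cdca8 is at 251 and 328 RPM in d4c7 FGF2, above both d4c7 FR10 libraries.

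The cells cultured for 7 days in FR10 were set beside d4 PGCLCs, and Kif11 and Cenpe were lower in culture. In d4c7 FR10, compared with d4 PGCLCs, 2 members fell and 0 rose, while 8.22% of all tested genes fell and 7.01% rose. Kif11 (chromosome 19, 37376382 to 37421863, GRCm38) was at 63.5 and 48.7 RPM in d4c7 FR10, against 161 and 149 RPM in d4 PGCLCs. It fell by 1.46 ± 0.27 on the log2 scale (adjusted p 0.00158), and its d4c7 FR10 libraries also lay below the EpiLC libraries at 83.8 and 87.4 RPM. Cenpe, a kinesin that carries chromosomes to the spindle equator, was at 39.9 and 46.3 RPM in d4c7 FR10, against 75.1 and 75.9 RPM in d4 PGCLCs (-0.80 ± 0.26, adjusted p 0.045). Kif11 alone remained called without any 1 of the 4 libraries and on scaled values. Without the 3 libraries that stood apart 7 members fell and 1 rose, as 31.2% of all tested genes were called.

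Cdc20, next by p, was at 145 and 143 RPM in d4c7 FR10, against 187 and 227 RPM in d4 PGCLCs (-0.51 ± 0.19, adjusted p 0.078). The log2 differences of the other followed genes were 0.22 ± 0.44 for Cdk1, 0.22 ± 0.18 for Ccnb1, 0.04 ± 0.23 for Plk1, 0.15 ± 0.18 for Top2a and -0.79 ± 0.37 for Birc5, none of them called. The median was -0.12 over the members and -0.07 over all tested genes. Both d4c7 FR10 libraries lay below both d4 PGCLC libraries for 16 members, against 36.5% of all tested genes, and above them for 4 (Ccnb1, Cdc25b, Bub1 and Cdca8, named after their values were seen), against 29.2%. On scaled values 15 lay below and 9 above, against 32.7% and 32.9% of all. Of the 19 further spindle and cytokinesis genes 5 fell, among them Kif15, a kinesin that can act beside KIF11 (-2.52 ± 0.54, adjusted p 0.00457), Kif20b (-3.69 ± 0.76, adjusted p 0.00347) and Cep55 (-2.28 ± 0.48, adjusted p 0.0038). Sgol2a fell by 1.85 ± 0.30 (adjusted p 0.000582), while Pttg1 and Mybl2 rose by 0.66 ± 0.21 and 0.73 ± 0.23 (adjusted p 0.0426 and 0.0402). Strain, feeder cells and culture all differ between these groups and cannot be told apart. Of the 13 fibroblast and feeder markers 8 were tested, of which 4 rose and 1 fell, with a median log2 difference of 2.37. Dcn was at 76.7 and 69.4 RPM in d4c7 FR10, against 0 and 0 RPM in d4 PGCLCs, while Sparc, the most abundant marker of the list, was at 87.9 and 89.1 RPM in d4c7 FR10, against 342 and 316 RPM in d4 PGCLCs. The sum of the 13 markers was 254 to 296 RPM in d4c7 FR10 and 334 to 352 RPM in d4 PGCLCs. The part of feeder cells in these differences was not tested.

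The d4c7 CsA, FGF10 and FGF2 cultures were each compared with the same 2 d4c7 FR10 libraries, so the 3 comparisons share their controls. With CsA the members lay lower than with FR10, but no single gene passed the test. Of the 35 members 0 were called by limma and 0 by voom. Of all tested genes 0.0314% were called. Both CsA libraries lay below both FR10 libraries for 28 members, against 41.6% of all tested genes, and above them for 0, against 11.4%. The sum was 4773 and 5015 RPM with CsA, against 6767 and 6124 RPM with FR10, a ratio of 0.759. The median log2 difference was -0.35 over the members and -0.24 over all tested genes, so a general shift on the RPM scale ran the same way. On scaled values the members' median was -0.12 beside -0.02 for all genes, the ratio of sums was 0.890, and 15 members lay wholly below and 3 wholly above, against 24% and 23.1% of all.

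The members with the smallest p were Anln, Bub1b and Kif11. Anln was at 36.2 and 71.3 RPM with CsA, against 118 and 117 RPM with FR10 (log2 difference -1.19 ± 0.31, adjusted p 0.141). Bub1b was at 90.9 and 103 RPM with CsA, against 139 and 187 RPM with FR10 (-0.73 ± 0.24, adjusted p 0.214). Kif11 was at 26.9 and 36.6 RPM with CsA, against 63.5 and 48.7 RPM with FR10 (-0.81 ± 0.27, adjusted p 0.225). In each of the 3 the groups did not overlap, and Anln varied most between the CsA replicates. Differences of the followed genes were -0.12 ± 0.44 for Cdk1, -0.48 ± 0.18 for Ccnb1, -0.19 ± 0.23 for Plk1, -0.28 ± 0.19 for Cdc20, -0.35 ± 0.18 for Top2a and 0.17 ± 0.37 for Birc5, none of them called. By role, the median was -0.33 for the kinases and cyclins, -0.39 for the checkpoint genes, -0.32 for the kinetochore genes, -0.40 for the motors and -0.59 for the cytokinesis genes. Of 23 S phase genes 0 were called by limma, with a median of -0.29. Without the 3 libraries that stood apart, which belong to neither group but enter the shared estimate of spread, 8 members fell (Bub1b, Bub1, Ect2, Mad2l1, Anln, Ccnb2, Ccnb1 and Kif11) as 10.3% of all tested genes were called. The sum of the 13 fibroblast and feeder markers was 125 to 236 RPM with CsA and 254 to 296 RPM with FR10, and its part in the result was not tested.

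In the group labelled FGF10 no member passed the test against FR10. Of the 35 members 0 were called by limma and 0 by voom, and 0.00% of all tested genes were called. In the median the members differed by -0.13 on the log2 scale and all tested genes by -0.08. Bub1 was at 141 and 156 RPM with FGF10, against 228 and 211 RPM with FR10 (-0.56 ± 0.20, adjusted p 0.906). Ccnb2 was at 239 and 297 RPM with FGF10, against 405 and 384 RPM with FR10, and Cdc20 at 172 and 188 RPM with FGF10, against 145 and 143 RPM with FR10 (-0.56 ± 0.29 and 0.32 ± 0.19, adjusted p 0.979 each). Both FGF10 libraries lay below both FR10 libraries for 13 members, against 25.0% of all tested genes. They lay above for 4 (Ccna2, Cdc25b, Cdc20 and Prc1, named after their values were seen), against 15.1%. On scaled values 5 lay below and 4 above, against 19.1% and 20.5% of all, and the members' median was -0.05. Differences of the other followed genes ran from -0.34 ± 0.44 for Cdk1 to 0.01 ± 0.37 for Birc5. The difference between FGF10 and CsA was not tested here.

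With FGF2, compared with FR10, 7 of the 35 members fell and 0 rose. Of all tested genes 7.47% fell and 1.37% rose. Those 7 were Bub1, Aurkb, Top2a, Nusap1, Kif11, Mad2l1 and Cenpf. The median log2 difference was -0.61 over the members and -0.33 over all tested genes, and 33 members had a negative difference. Both FGF2 libraries lay below both FR10 libraries for 28 members, against 43.2% of all tested genes.

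Bub1 (chromosome 2, 127800197 to 127831859, GRCm38) was at 134 and 85.3 RPM with FGF2, against 228 and 211 RPM with FR10 (-1.03 ± 0.20, adjusted p 0.0103). Aurkb was at 80.3 and 67.3 RPM with FGF2, against 132 and 135 RPM with FR10 (-0.85 ± 0.19, adjusted p 0.019). Mad2l1 was at 94 and 66.3 RPM with FGF2, against 208 and 146 RPM with FR10 (-1.13 ± 0.33, adjusted p 0.0421). These genes act in the checkpoint or in the correction of attachments, and in each of them both FGF2 libraries were lower. Of the 7 checkpoint and anaphase-promoting complex genes only Bub1 and Mad2l1 were called, where 7.47% of all tested genes fell. Bub1b and Ttk, named after their values were seen, overlapped between the groups. Top2a was at 403 and 315 RPM with FGF2, against 642 and 540 RPM with FR10 (-0.72 ± 0.18, adjusted p 0.0276). Nusap1, which bundles spindle microtubules near chromosomes, was at 73.8 and 55.7 RPM with FGF2, against 135 and 124 RPM with FR10 (-1.0 ± 0.26, adjusted p 0.0285). Kif11 was at 23.6 and 30.1 RPM with FGF2, against 63.5 and 48.7 RPM with FR10 (-1.03 ± 0.27, adjusted p 0.0312). Kif11 thus had its lower replicate in the library where Bub1 and Mad2l1 had their higher one.

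Cdk1 was at 160 and 56.9 RPM with FGF2, against 268 and 193 RPM with FR10, and its difference of -1.24 ± 0.44 did not pass the test (adjusted p 0.0812). Its FGF2 replicates differed more than the FR10 replicates. The other followed genes differed by -0.36 ± 0.18 (Ccnb1), -0.07 ± 0.23 (Plk1), -0.21 ± 0.19 (Cdc20) and -0.60 ± 0.37 (Birc5), none of them called. Cdca8, which encodes the passenger protein borealin and is named after its values were seen, was the 1 member with both libraries higher, at 251 and 328 RPM with FGF2, against 176 and 231 RPM with FR10. For comparison, 15.2% of all tested genes lay wholly higher with FGF2.

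**Figure D5:**
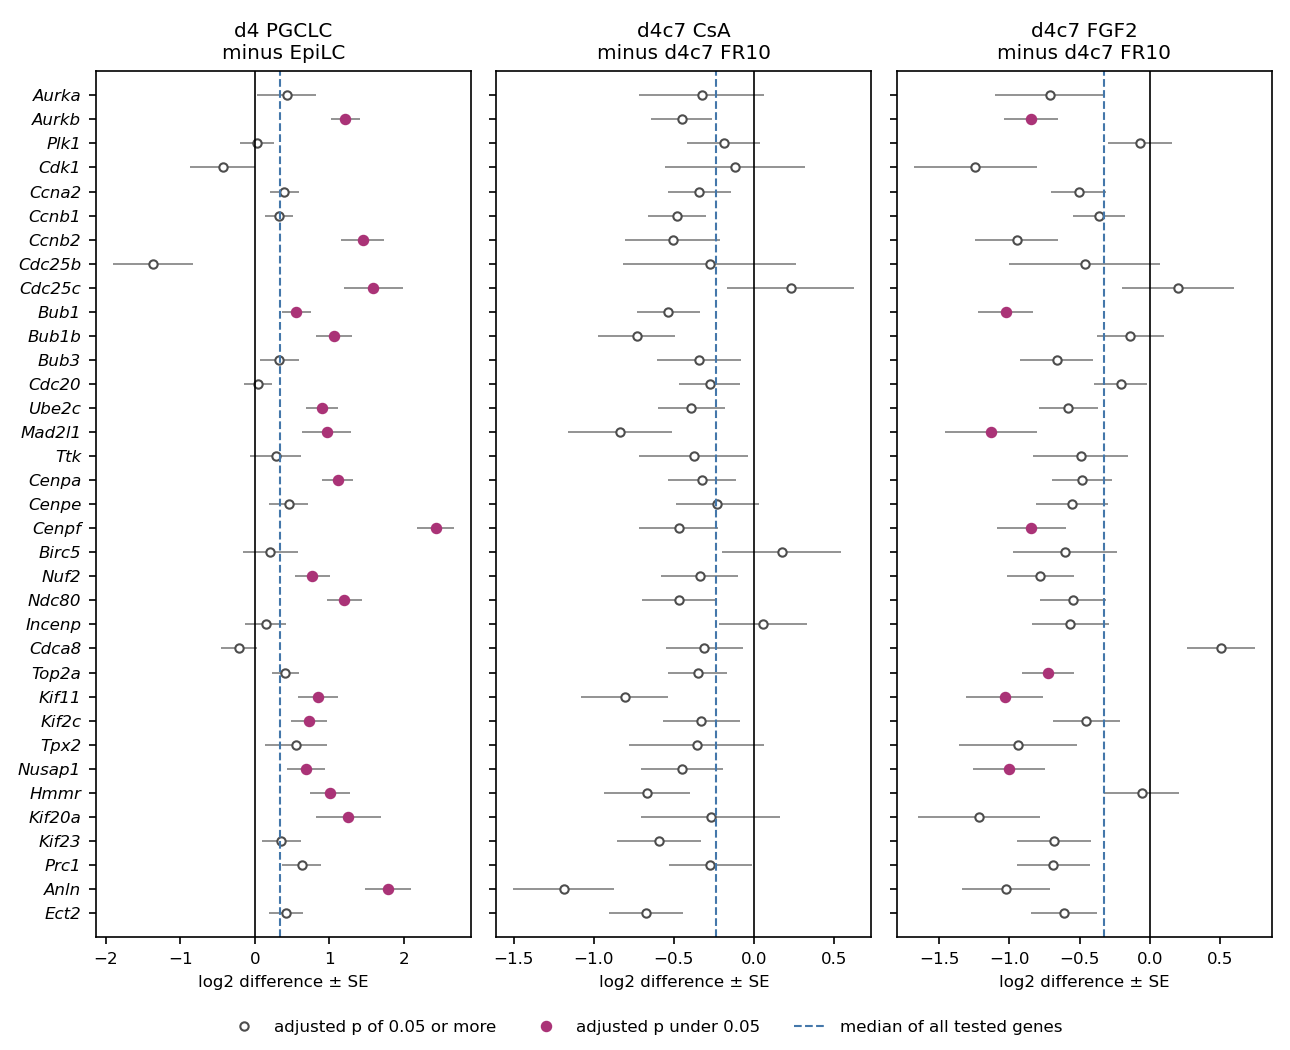
Points are the log2 differences (log2(RPM + 1), SE as bars) of the 35 genes in d4 PGCLCs minus EpiLCs, d4c7 CsA minus FR10 and d4c7 FGF2 minus FR10, filled where the adjusted p was under 0.05. The dashed line is the median of all tested genes, at 0.34, -0.24 and -0.33 in the 3 panels. In the first panel 32 members are above 0, a number that was 24 on scaled values, and in the last 33 are below 0, a number that was 29 on scaled values.

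Around the members, the G2 to M regulators Lin9, a MuvB subunit (-2.43 ± 0.47, adjusted p 0.0104), Plk4, the kinase of centriole duplication (-1.59 ± 0.38, adjusted p 0.0244), and Nek2 (-1.30 ± 0.33, adjusted p 0.027) fell with FGF2. Of 20 genes of that list 4 fell, of 26 further kinetochore genes 4, of 19 further spindle genes 1, of 15 genes of the anaphase-promoting complex 2, of 14 cohesin genes 3, of 8 condensin genes 2 and of 23 S phase genes 1, with 0 higher in each, where 7.47% of all tested genes fell. The shares of the further spindle genes and of the S phase genes were below that of all genes. They included Zwint, a kinetochore scaffold protein (-1.12 ± 0.20, adjusted p 0.00917), Ncapd3, a condensin II subunit (-2.10 ± 0.42, adjusted p 0.0124), and Pcna, the sliding clamp of replication (-1.27 ± 0.23, adjusted p 0.00942). The median of the S phase genes was -0.40.

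The FGF2 result rested on few libraries. No refit with 1 FGF2 or FR10 library left out kept all 7 calls, and none was kept without FR10 replicate 1 or without FGF2 replicate 2. The members' median then ran from -0.44 (without FGF2 replicate 2) to -0.85 (without FGF2 replicate 1), beside -0.205 and -0.385 for all tested genes. The count was 1 (Bub1) on scaled values and 0 when the fit held the 12 cultured libraries alone. On scaled values the members' median was -0.30 beside -0.03 for all genes. There 23 members lay wholly below and 3 wholly above (26.9% and 27.2% of all). FGF2 replicate 1 was above replicate 2 for 28 of the 35 members, with a median difference of 0.401 between them. Germ cell markers moved in the same comparison: 3 of 8 fell, with Kit at -2.14 ± 0.25 (adjusted p 0.000714) and Prdm1 at -2.04 ± 0.43 (adjusted p 0.0157). The sum of the 13 fibroblast and feeder markers was 140 to 209 RPM with FGF2 and 254 to 296 RPM with FR10, and 2 of the 8 tested fell. The part of these differences in the result was not tested.

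In cultured E9.5 germ cells, CsA was compared with FR10 in the same way. Of the 35 members 0 were called by limma and 0 by voom, and 0.00% of all tested genes were called. The sum was 5569 and 4052 RPM with CsA, against 5675 and 5502 RPM with FR10. On these deposited values only the second CsA library stood well below. On scaled values the sums were 5257 and 4817 with CsA, against 5418 and 5551 with FR10. The ratio of the group sums was 0.861 as deposited and 0.918 on scaled values. In the median the members differed by -0.23 and all tested genes by -0.11 (log2). Ccna2, which encodes cyclin A2, was at 243 and 182 RPM with CsA, against 323 and 282 RPM with FR10 (-0.52 ± 0.20, adjusted p 0.601). Top2a was at 437 and 327 RPM with CsA, against 496 and 557 RPM with FR10, and Hmmr, a spindle-associated protein, at 25.3 and 20.5 RPM with CsA, against 39.1 and 34.7 RPM with FR10 (-0.47 ± 0.18 and -0.67 ± 0.27, adjusted p 0.601 each). Both CsA libraries lay below both FR10 libraries for 10 members, against 16.8% of all tested genes, and above for 1 (Prc1, named after its values were seen), against 8.61%. On scaled values 7 lay below and 3 above, against 13.1% and 12.2% of all. Without CsA replicate 1 the members' median was -0.43, beside -0.249 for all tested genes. Without CsA replicate 2 it was -0.00, beside 0.054 for all tested genes. The followed genes not yet named ran from -0.24 ± 0.18 for Ccnb1 to 0.33 ± 0.37 for Birc5.

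The effect of CsA on the members was not shown to differ between the embryo cells and the PGCLCs. In the test of the difference itself 0 members were called by limma and 0 by voom. Of all tested genes 0.00% were called by limma, so this test does not set the members apart from other genes. The member with the smallest p was Anln, for which the CsA difference in E9.5c5 minus that in d4c7 was 1.00 ± 0.44 (adjusted p 0.745).

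E9.5c5 FR10 and d4c7 FR10, germ cells of the embryo and their counterparts made in vitro, also gave 0 called members by limma and 0 by voom. Of all tested genes 0.0418% were called by limma. The median log2 difference was -0.36 over the members and -0.20 over all tested genes. Nuf2, the partner of NDC80, was at 50.4 and 47.7 RPM in E9.5c5 FR10, against 85.2 and 72.2 RPM in d4c7 FR10 (-0.67 ± 0.24, adjusted p 0.242). Ndc80 itself was at 58.9 and 48.2 RPM in E9.5c5 FR10, against 82.1 and 81.1 RPM in d4c7 FR10 (-0.61 ± 0.23, adjusted p 0.267). For both subunits the groups did not overlap. Nusap1 was at 114 and 66 RPM in E9.5c5 FR10, against 135 and 124 RPM in d4c7 FR10 (-0.57 ± 0.26, adjusted p 0.317). Both E9.5c5 libraries lay below both d4c7 libraries for 17 members, against 35.1% of all tested genes, and above for 0, against 13.9%. On scaled values 11 lay below and 5 above, against 23.1% and 22.6% of all, and the members' median was -0.17 beside -0.02 for all genes. The followed genes ran from -0.77 ± 0.44 for Cdk1 to 0.31 ± 0.23 for Plk1. Strain, reporter, days of culture and origin of the cells all differ between these groups and cannot be told apart.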

How the data were processed

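Expression was measured by SC3-seq in 18 libraries, from 1 ng of RNA, per the labels' protocols. The deposited values are RPM, read numbers that the authors scaled to a common library total, with no correction for transcript length. Per the submitters' processing notes, the build was mm10 and the tools were Cufflinks 2.2.0, TopHat 1.4.1 and cutadapt 1.3. Their roles, the gene annotation and how reads were counted are not given in these sources. Genes with near-identical 3′ ends, such as processed pseudogenes, can share reads.

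Each file lists 34896 genes, of which 46 without a value were left out. Depth was inferred from the step between low values. Within 0.02 read, 99.7% to 99.9% of these were whole multiples of the step, but others lay below it, so no count model was the main test. Such depth covers counting error only, as reads amplified by PCR without identifiers are not separate molecules.

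Genes at 10 RPM or more in at least 2 libraries (9561) were fitted in limma 3.58.1 under R 4.3.3 as log2(RPM + 1), with a mean per group, an empirical Bayes trend and 9 residual degrees of freedom. A gene is called at a Benjamini-Hochberg adjusted p under 0.05 over all tested genes, and adjusted p-values are from limma. The procedure was tested on simulated data. Promoter windows came from RefSeq (GRCm38.p6), and gene coordinates from RefSeq genes on the same build.

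Levels of single members are given for each library of the groups compared, and not for every member. Named with their difference are up to 6 called members per direction by smallest p, the 3 with the smallest p where fewer than 3 were called, and Cdk1, Ccnb1, Plk1, Cdc20, Top2a and Birc5. Up to 3 called genes of each of 7 pathway lists (127 genes, all found, 125 tested) may be named. Members, lists, tests and alternatives were chosen with earlier results of these data known. The alternatives tried were a pseudocount of 0.1 or 10, a filter at 50 RPM or none, median-ratio scaling, a replicate block, a fit of the cultured libraries alone, each library left out, 3 libraries left out, and voom in limma on the inferred reads, the last chosen after seeing the data.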

Additional observations from a re-analysis of the deposited data

How the results depend on the processing

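With 2 libraries per group the counts of called members depended on the shared estimate of spread and on single libraries. Of the counts of called members under all alternatives, 92 stayed within 1.5 times the values above and 26 did not. Most of the 92 were counts of 0 that stayed 0, in comparisons without a called member. In the comparisons with called members, about as many counts moved as stayed. On median-ratio scaled values 8 members were called in d4 PGCLCs against EpiLCs, 1 in d4c7 FR10 against d4 PGCLCs and 1 in FGF2 against FR10. For FGF2 against FR10 the count was 2 with no filter and 0 with the cultured libraries alone. Without the 3 libraries that stood apart, which lowers the spread, the counts were 5 (EpiLC against ESC), 26 (d4 PGCLC against EpiLC), 8 (d4c7 FR10 against d4 PGCLC) and 8 (CsA against FR10 in PGCLCs). Of all tested genes 29.7%, 55.8%, 31.2% and 10.3% were called, in the same order. Leaving out each library in turn gave 0 to 0 for EpiLC against ESC, 8 to 13 for d4 PGCLC against EpiLC, 1 to 1 for d4c7 FR10 against d4 PGCLC, 0 to 12 for FGF2 against FR10 and 0 to 7 for CsA against FR10 in embryo cells. A group left with 1 library was assumed to vary like the others. The share of all tested genes called also varied between these fits, so their counts are not read as results about the members. The members' median in EpiLCs against ESCs, 0.01, became -0.0045 with the filter at 50 RPM, and lay between -0.0672 (without EpiLC replicate 1) and 0.0927 (without EpiLC replicate 2) with single libraries left out, at -0.0196 without ESC replicate 2. The median of the CsA difference in E9.5c5 minus d4c7, 0.17, lay between -0.0901 (without E9.5c5 CsA replicate 1) and 0.4556 (without E9.5c5 CsA replicate 2). Except where a group lost a library, the cause of these changes was not tested. With the replicate number as a block, 12 members were called in FGF2 against FR10, as 12.2% of all tested genes were, and each other comparison kept its count. The labels do not say that equal numbers mark paired samples, and with 2 pairs per comparison the correlation of replicate differences between groups ran from -0.03 to 0.34. The numbers were therefore not treated as pairs, and whether samples of equal number share a batch was not tested.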
